A study of Mus musculus with 4 samples.

Results

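The levels of 8 genes that bring fatty acids from the blood into muscle fibres were followed along the mouse tibialis anterior, the shin muscle, which is built mostly of fast fibres. They are Lpl, Gpihbp1, Angptl4, Cd36, Slc27a1, Fabp3, Fabp4 and Vegfb, taken by name from table rows that name a single gene. They make up 8 of 28782 genes with a count in a kept section. All samples were 1 group of 4 muscles, and the labels give no strain, genotype, age or treatment. Each muscle was frozen and cut along one axis, and every section received its own barcode (TOMO-seq with CEL-Seq2 primers). This chemistry counts transcript 3′ ends with unique molecular identifiers (UMIs), so levels do not depend on gene length and can be compared between genes. The comparison the design implies is by position along the muscle. Sections were placed between 0 (first kept) and 1 (last kept) and grouped into 5 zones of equal length, called zones 1 to 5. Which end is nearer the knee is not stated, so the first end is only the end with the low barcode numbers.

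Dietary and liver fat reaches muscle as triglyceride in lipoproteins. Lipoprotein lipase, the product of Lpl, is made by muscle fibres, carried to the capillary wall by GPIHBP1 of the endothelial cells, and held back by the inhibitor ANGPTL4. The released fatty acids are taken up with the help of CD36 and of the transport protein FATP1, which Slc27a1 encodes, and are bound inside cells by small carriers. FABP3 is the carrier of muscle fibres and FABP4 that of fat cells and capillary endothelium. VEGFB is a growth factor that binds the endothelial receptor FLT1 and, in mice, has been linked to the passage of fatty acids through the vessel wall.

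The kept sections numbered 37, 45, 46 and 43 in muscles 1 to 4 and held 18924848, 17114433, 26989829 and 22878407 transcripts. Single sections ranged from 86190 to 1159697 transcripts. Mitochondrially encoded transcripts took 59.1% to 66.9% of a muscle. The tissue label fits the myosins: Myh4 of fast glycolytic fibres stood at 5272 to 7670 CPM (transcripts scaled to the same total in each muscle), while Myh7 of slow fibres had 13 transcripts in all 171 sections. Fat cell markers were scarce, with 101 transcripts of Adipoq and 63 of Plin1. The labels do not state that each muscle is another animal, so the spread among zone sums of these samples, on which the p-values rest, may be technical. A section holds many cell types, so fewer cells of a type and less RNA per cell cannot be told apart.

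Over whole muscles Lpl was the most abundant of the 8 and Angptl4 the least. Lpl averaged 299 ± 106 CPM (SD, n = 4), with 295, 378, 373 and 151 CPM in muscles 1 to 4. Fabp3 followed at 108 ± 8.59 CPM, then Cd36 at 85.9 ± 16.6, Fabp4 at 74.1 ± 15.2 and Vegfb at 45.6 ± 12.4. Slc27a1 stood at 16.6 ± 4.81, Gpihbp1 at 11.4 ± 4.03 and Angptl4 at 0.490 ± 0.340. The SD ranges of neighbours in this order overlap from Fabp3 to Fabp4 and between Slc27a1 and Gpihbp1. The transcripts of the lipase outnumbered those of its endothelial carrier in every muscle. On this unscaled measure muscle 4 was lowest in Lpl, Cd36, Fabp3, Fabp4, Gpihbp1 and Vegfb, and its mitochondrially encoded share was the highest of the 4, at 66.9%. After scaling, as used below, Fabp3 and Fabp4 of muscle 4 were not the lowest in zone 1. Rows naming several genes were left out, and 0 to 4 of them per muscle held Lpl, Gpihbp1, Cd36, Slc27a1 or Angptl4. None held Fabp3, Fabp4 or Vegfb. How much this lowers the levels of the former genes was not measured.

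Between the ends of the muscle, Lpl, Fabp3, Cd36 and Vegfb were higher at the first end than at the last, by 0.53 to 0.84 on the log2 scale. Fabp4, Gpihbp1 and Slc27a1 did not pass the test. These 4 of 7 tested members compare with 3.07% of all 9632 genes tested, 1.97% with a rise and 1.1% with a fall. That share covers genes of all levels, and thinly counted ones are harder to call. In DESeq2, another test, 227 of the 1998 genes with an adjusted p were called, the same 4 members among them. A share among genes of like level was not computed. The median difference was 0.53 over the 7 members and -0.0028 over all genes. The main test was edgeR's quasi-likelihood F-test on counts summed per muscle and zone, with muscle as a block and Benjamini-Hochberg adjustment over all genes. A gene was called where the adjusted p was under 0.05. The SE printed with a difference and its p come from the spread of all zone sums around this fit. They are not the spread between muscles. The SD of the 4 single-muscle differences was 0.27 for Lpl, 0.47 for Fabp3, 0.17 for Cd36 and 0.17 for Vegfb. It was 0.22 for Fabp4, 0.15 for Gpihbp1 and 0.83 for Slc27a1.

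**Figure D1:**
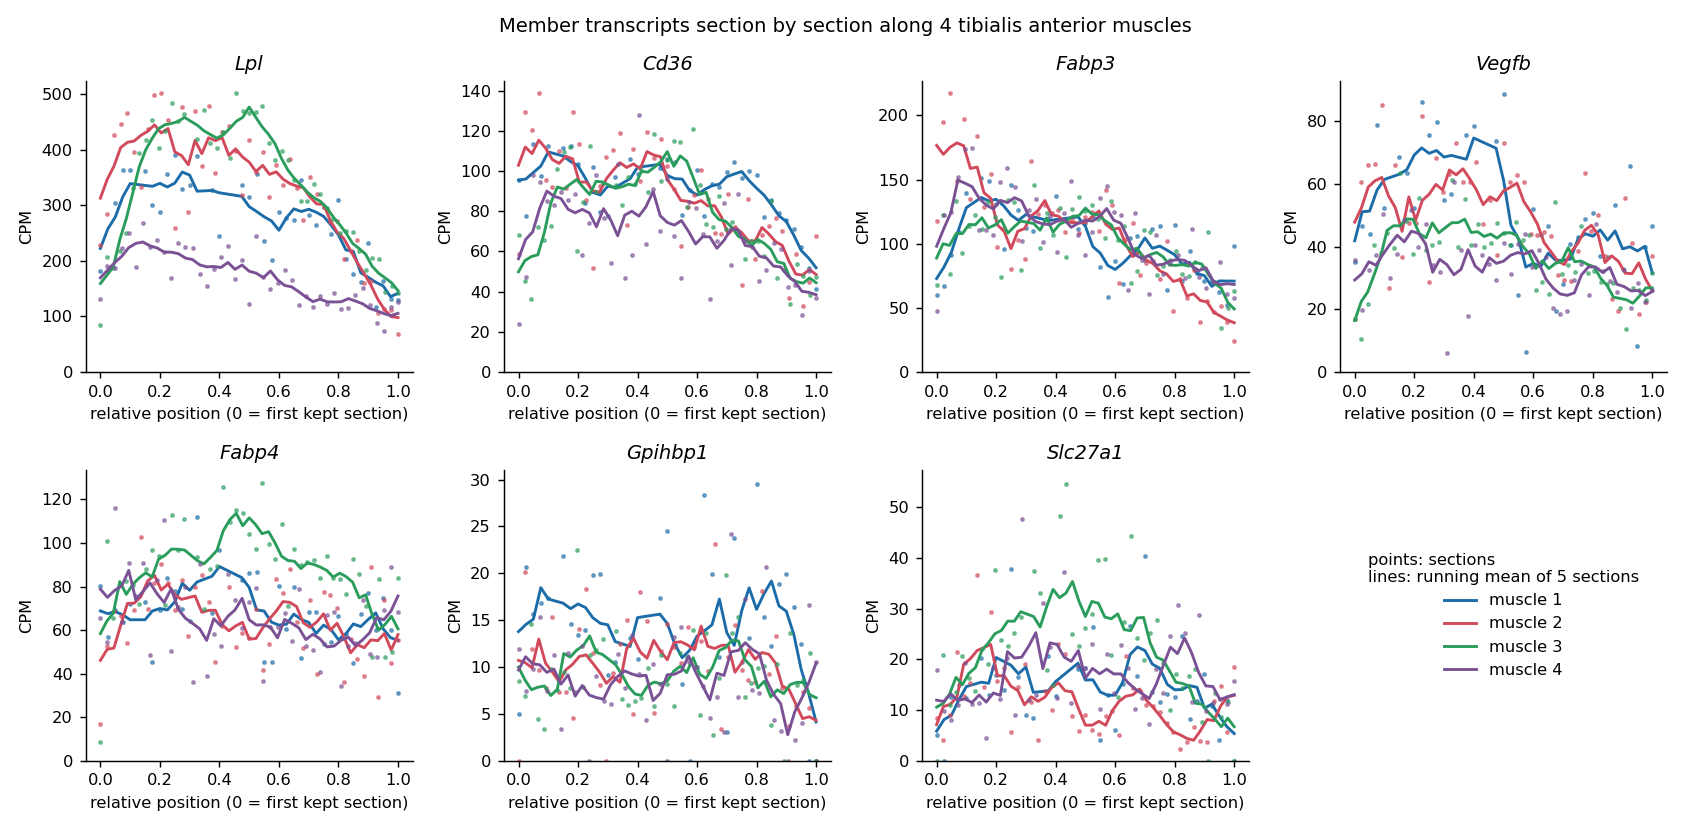
Level (CPM) of 7 genes in each kept section against relative position, from 0 for the first to 1 for the last kept section. Points are single sections, lines are running means of 5 sections, and colours are the 4 muscles; the lines of Lpl, Cd36 and Fabp3 decline toward the last end, while single sections of Gpihbp1 lie between 0 and 29.6 CPM throughout.

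Lpl lies on chromosome 8 at 68880491 to 68907448 on the plus strand (GRCm38). In zone 1 its level, scaled between zone sums, was 309, 423, 356 and 229 CPM in muscles 1 to 4, and in zone 5 it was 196, 180, 227 and 126 CPM. Every zone 1 value was above every zone 5 value, although the lowest of the one and the highest of the other were close, at 229 and 227 CPM. The fitted difference was 0.84 ± 0.08 log2 units (SE; edgeR adjusted p = 9.73e-12). It was 0.66, 1.23, 0.65 and 0.86 in the single muscles. Over zones 1 to 5 the means ran 329, 342, 320, 261 and 182 CPM, so that most of the fall came after the middle. The highest single sections were at relative positions 0.25, 0.20, 0.46 and 0.14. The first section of each muscle lay below that peak, at 181, 228, 85.1 and 131 CPM, against section medians of 288, 336, 364 and 168 CPM.

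Gpihbp1, on chromosome 15 at 75596628 to 75599481 on the plus strand, encodes the endothelial protein that binds this lipase. Its zone 1 levels were 16.4, 9.62, 8.99 and 8.93 CPM, and its zone 5 levels were 17.4, 9.69, 7.83 and 7.65 CPM. The ranges overlapped almost entirely, and the muscles split 2 and 2 in direction. The difference was 0.022 ± 0.16 (edgeR adjusted p = 0.989). With 5.57 transcripts per section on average the gene is thinly counted. Its value was 0.42 with equal section weights in limma (adjusted p = 0.301), 0.40 with 10 zones (edgeR adjusted p = 0.606) and 0.20 after thinning to the depth of the shallowest zone sum (edgeR adjusted p = 0.817). The difference of Lpl exceeded that of Gpihbp1 in 4 of 4 muscles, by 0.77 ± 0.34 log2 units (SD, n = 4). An exact sign-flip test of this gap gave p = 0.125 two-sided, the smallest p that 4 muscles allow (0.188 adjusted over 3 pairs).

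Angptl4, on chromosome 17 at 33773750 to 33781830 on the minus strand, was near the limit of detection. Muscles 1 to 4 held 16, 8, 1 and 14 transcripts in all kept sections. In muscle 3 its level was 0.0371 CPM with an exact 95% Poisson interval of 0.000938 to 0.206, and in muscle 1 it was 0.845 CPM (0.483 to 1.37). These 2 intervals cover counting error only and do not overlap, but that of muscle 2 (0.202 to 0.921) overlaps that of muscle 3. In muscle 3 alone, 1 row naming several genes held Angptl4 and was left out. The part of that row in the low count was not tested. Over zones 1 to 5 the transcripts were 1, 1, 3, 3 and 8 in muscle 1 and 4, 1, 4, 3 and 2 in muscle 4. The gene did not pass the filter on low counts for the zone fit, so no difference along the muscle is given.

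Cd36, the plasma membrane fatty acid receptor of muscle fibres and endothelium, lies on chromosome 5 at 17781690 to 17888801 on the minus strand. Its zone 1 levels were 103, 116, 88.3 and 85.6 CPM, and its zone 5 levels were 73.8, 63.8, 61.1 and 52.6 CPM. The 2 sets of values did not overlap. The difference was 0.63 ± 0.09 (edgeR adjusted p = 5.34e-07), with 0.48, 0.86, 0.53 and 0.70 in the single muscles. Over zones 1 to 5 the means were 98.1, 89.3, 93.1, 77.1 and 62.8 CPM, a profile that stayed nearly level to the middle and then declined.

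Slc27a1, on chromosome 8 at 71568882 to 71587302 on the plus strand, is the other uptake gene of the 8. It had 13.1, 18.5, 18.6 and 12.6 CPM in zone 1, against 11.5, 6.87, 13.9 and 19.5 CPM in zone 5. The sets overlapped, and muscle 4 ran against the other three. Its difference was 0.25 ± 0.18 (edgeR adjusted p = 0.621), and the values of single muscles spread from -0.61 to 1.40. It was 0.013 without muscle 2 and 0.56 without muscle 4, neither of them called by edgeR. The gap between Cd36 and Slc27a1 was 0.29 ± 0.77 (SD, n = 4; exact sign-flip p = 0.625, two-sided) and positive in 3 of 4 muscles.

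Fabp3, the carrier of muscle fibres, lies on chromosome 4 at 130308595 to 130315463 on the plus strand. Its zone 1 levels were 119, 170, 118 and 135 CPM, and its zone 5 levels were 78.9, 58.6, 79.8 and 88.03 CPM. No zone 5 value reached any zone 1 value. The difference was 0.80 ± 0.09 (edgeR adjusted p = 3.03e-09). Muscle 2 stood apart at 1.53, while muscles 1, 3 and 4 had 0.60, 0.57 and 0.61, and without muscle 2 the fit gave 0.59. Over zones 1 to 5 the means were 136, 120, 117, 91.4 and 76.3 CPM, the only member besides Cd36 with its highest mean at the first end. Zcchc17 and Gm10570 overlap Fabp3 on the opposite strand, with 1009 and 114 transcripts against 9266 of Fabp3. Both neighbours have rows of their own, and no row naming several genes held Fabp3 in any muscle. The use of strand in counting is not stated, and whether reads of these neighbours enter the count of Fabp3 was not tested.

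Fabp4, the carrier of fat cells and capillary endothelium, lies on chromosome 3 at 10204088 to 10208576 on the minus strand. It had 62.5, 69.5, 84.9 and 82.98 CPM in zone 1, against 61.4, 54.9, 80.1 and 58.7 CPM in zone 5. Zone 1 was higher in 4 of 4 muscles, but the sets overlapped; of all genes tested 9.63% were higher and 9.55% lower in all 4. The difference was 0.24 ± 0.09 (edgeR adjusted p = 0.200). With 3 zones in place of 5 it was 0.26 and passed (edgeR adjusted p = 0.0294), while with 10 zones it was 0.12 (edgeR adjusted p = 0.814). Without muscle 4 it was 0.13 (edgeR adjusted p = 0.699). The difference of Fabp3 exceeded that of Fabp4 by 0.59 ± 0.45 (SD, n = 4), in 4 of 4 muscles (exact sign-flip p = 0.125, two-sided, the smallest possible; 0.188 adjusted over 3 pairs).

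Vegfb, the growth factor, lies on chromosome 19 at 6982473 to 6987651 on the minus strand. Its zone 1 levels were 58.9, 57.7, 43.8 and 40.1 CPM, and its zone 5 levels were 40.3, 36.8, 28.4 and 32.9 CPM. Zone 1 was higher in each muscle, yet the lowest zone 1 value lay just under the highest zone 5 value. The difference was 0.53 ± 0.10 (edgeR adjusted p = 2.56e-04). The single muscles had 0.55, 0.65, 0.62 and 0.28. Its means over zones 1 to 5 were 50.1, 53.3, 48.2, 36.97 and 34.6 CPM, so that zones 1 to 3 lay together above zones 4 and 5.

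**Figure D2:**
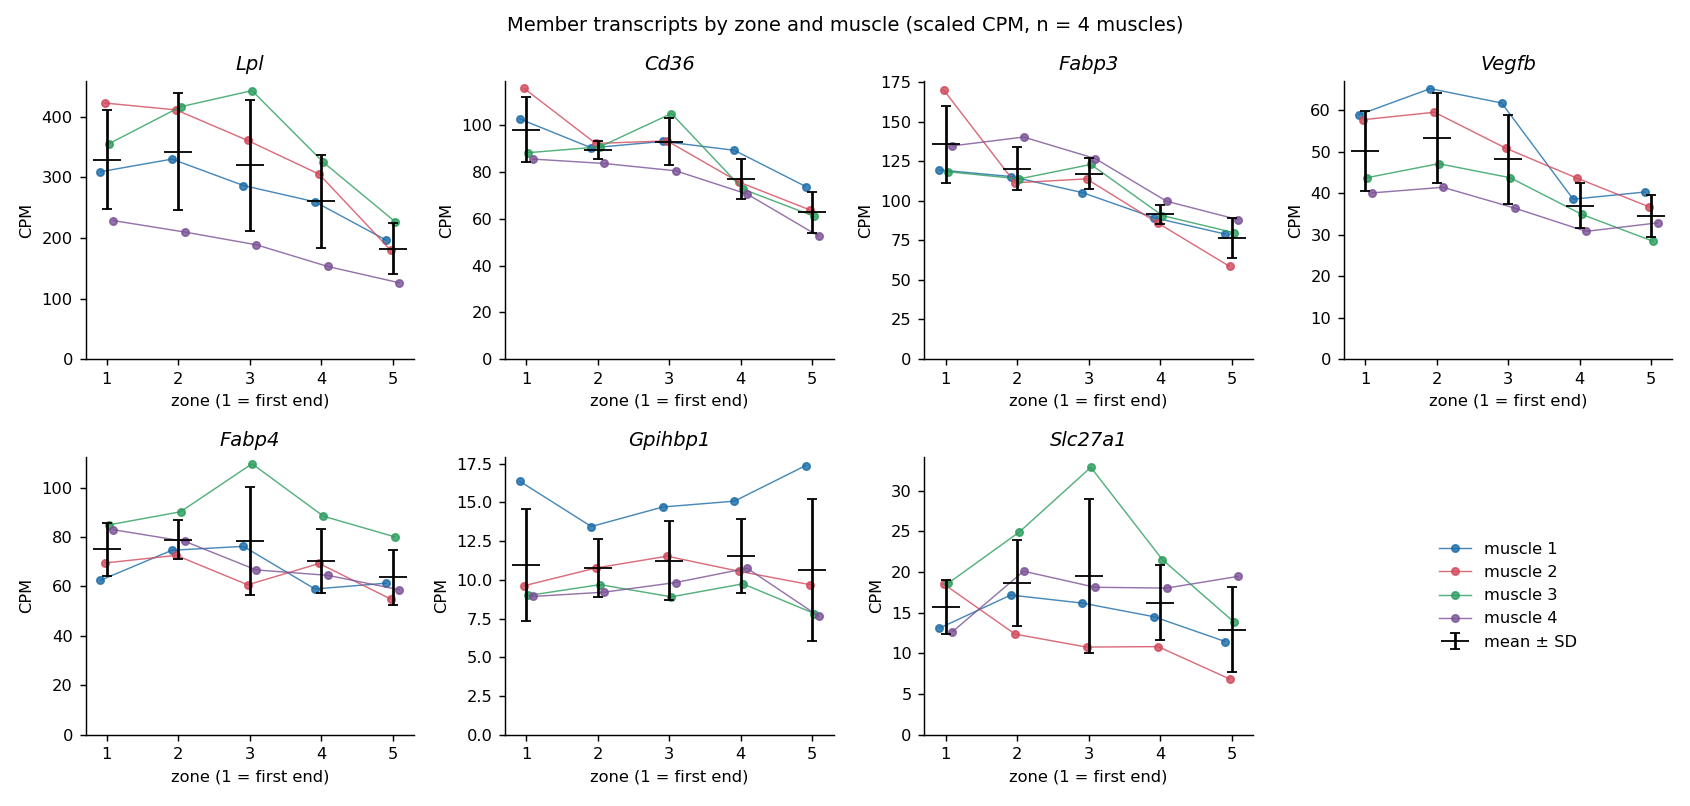
Scaled level (CPM) of each gene in zones 1 to 5 of the 4 muscles, with the mean and SD in black (n = 4). Lpl, Cd36 and Fabp3 have no zone 5 value as high as any zone 1 value, Fabp4 and Slc27a1 of muscle 3 peak in zone 3 (110 and 32.9 CPM), and Gpihbp1 of muscle 1 is highest in all zones.

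For Lpl, Cd36 and Fabp3 the 4 zone 1 values all lay above the 4 zone 5 values, as they did in 0.955% of genes tested. Muscles 1 and 2 carried another set of section barcodes than muscles 3 and 4. Within the first set the differences were 0.93 for Lpl, 0.66 for Cd36, 1.03 for Fabp3 and 0.60 for Vegfb, and all 4 passed (largest edgeR adjusted p = 0.0103). Within the second set they were 0.75, 0.61, 0.58 and 0.46, and Vegfb no longer passed (edgeR adjusted p = 0.121). Leaving out any 1 muscle kept these 4 calls. Without muscle as a block edgeR called 1 of all genes and no member, while 4 members had an unadjusted p under 0.05.

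The promoters of 2 of the 4 rising genes are shown to set their motifs side by side, as the 250 bases before the RefSeq start in GRCm38.p6, 5′ to 3′ on the gene's strand. That table matched 4 of the 8 members, which are Cd36, Slc27a1, Fabp3 and Vegfb. Capitals mark the core motif of nuclear receptors (AGGTCA, or TGACCT on the other strand) and an E-box (CANNTG), a motif of basic helix-loop-helix factors such as the myogenic ones.
Cd36, chr5:17835897-17836146, minus strand: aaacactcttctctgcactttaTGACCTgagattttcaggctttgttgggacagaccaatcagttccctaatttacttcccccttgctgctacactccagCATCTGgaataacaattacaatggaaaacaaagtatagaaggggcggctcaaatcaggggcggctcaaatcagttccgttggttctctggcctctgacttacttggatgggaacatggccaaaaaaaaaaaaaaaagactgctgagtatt
Vegfb, chr19:6987652-6987901, minus strand: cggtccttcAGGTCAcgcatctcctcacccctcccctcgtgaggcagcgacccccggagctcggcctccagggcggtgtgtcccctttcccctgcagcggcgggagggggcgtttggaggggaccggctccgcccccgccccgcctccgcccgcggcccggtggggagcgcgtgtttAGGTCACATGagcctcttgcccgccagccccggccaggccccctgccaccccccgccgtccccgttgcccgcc
Both strands were searched in all promoters of the table, over windows of this length. Core motifs began 228 bases before the start in Cd36, and 241 and 73 bases before it in Vegfb, where the second shares 2 bases with the E-box at 69. Core motifs were in 14.02% of all promoters and E-boxes in 66.2%. Among the 4 matched members only Cd36 and Vegfb, the 2 shown, had a core motif. Fabp3, which also rose, had none in its window, nor had any start of Slc27a1, while each of these windows held an E-box. A paired motif of PPAR and RXR (DR1) and a motif of MEF2 were also searched. Neither had a match in any of the 4 matched members, against 0.338% and 3.20% of all promoters. The Cd36 window lies inside the annotated span of the gene. Bases after its start matched no annotated transcript of Cd36 on either strand, so that this start was not borne out. The same held for every start of Slc27a1, while those of Fabp3 and Vegfb matched. The Fabp3 window, which reaches into the annotated gene, is not shown. Cd36 was 43.2% G and C over its window and Vegfb 76.4%. A match is a run of letters, and binding was not measured.

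Taken as the mean of zones 1 and 5, the ends were lower than the middle for Lpl and not called for the other 6 tested members. Over all genes 1.42% differed here, and 0.81% were lower at the ends. For Lpl the difference of the mean of zones 1 and 5 minus zone 3 was -0.35 ± 0.07 (edgeR adjusted p = 8.61e-04). The single muscles had -0.22, -0.39, -0.64 and -0.15. Zone 1 averaged 329 CPM and zone 5 182 CPM, against 320 CPM in zone 3, so that over the mean of 4 muscles only the last end lay below the middle. In muscles 1, 2 and 4 zone 1 lay above zone 3, at 309, 423 and 229 against 287, 361 and 189 CPM. In muscle 3 both ends lay lower, at 356 CPM in zone 1 and 227 CPM in zone 5, against 443 CPM in zone 3. The values of the others were negative too, at -0.47 ± 0.14 for Slc27a1 (edgeR adjusted p = 0.0586), -0.25 ± 0.07 for Cd36 (edgeR adjusted p = 0.0539), and between -0.21 and -0.06 for Vegfb, Fabp3, Fabp4 and Gpihbp1. The call of Lpl rested on muscle 3: without it the difference was -0.25 (edgeR adjusted p = 0.236). It was -0.29 in muscles 1 and 2 alone (edgeR adjusted p = 0.162) and -0.42 in muscles 3 and 4 alone (edgeR adjusted p = 0.00934). Of 7 fibro-adipogenic markers 5 fell in the same contrast by edgeR, as did 2 of 4 slow and oxidative fibre markers and 1 of 4 macrophage markers. The tendon markers Chad and Prg4 (0.55 ± 0.15), the fast fibre marker Mybpc2 (0.27 ± 0.06) and the 2 tested fat cell markers rose. The part of these cells in the difference of Lpl was not tested.

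The profile of Slc27a1 differed between muscles. In muscle 3 its levels over zones 1 to 5 were 18.6, 24.9, 32.9, 21.5 and 13.9 CPM, with the peak in the middle. In muscle 2 they were 18.5, 12.4, 10.8, 10.8 and 6.87 CPM, highest at the first end. In muscle 4 they were 12.6, 20.1, 18.1, 18.02 and 19.5 CPM, lowest there. Slc27a1 passed as lower at the ends without muscle 2 (-0.60, edgeR adjusted p = 0.0121) and without muscle 4 (-0.57, edgeR adjusted p = 0.0213). Without muscle 3 its value was -0.16 (edgeR adjusted p = 0.881).

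Between the flanks, zone 2 minus zone 4, the members called were Vegfb, Lpl and Fabp3, all higher on the first side. Of all genes 0.737% differed in this contrast, 0.467% upward. Vegfb had 65.2, 59.5, 47.1 and 41.4 CPM in zone 2, against 38.6, 43.6, 34.9 and 30.8 CPM in zone 4, a difference of 0.53 ± 0.10 (edgeR adjusted p = 1.99e-04). Its values overlapped between the zones but each muscle was higher in zone 2. Lpl differed by 0.40 ± 0.08 (edgeR adjusted p = 0.00190) and Fabp3 by 0.38 ± 0.09 (edgeR adjusted p = 0.0144), each positive in 4 of 4 muscles. Cd36 had 0.21 ± 0.08 (edgeR adjusted p = 0.314). The calls of Vegfb, Lpl and Fabp3 were lost when sections were given equal weight in limma (adjusted p 0.155 to 0.196), and only that of Vegfb held within muscles 1 and 2 alone. Over 17 alternatives the call of Fabp3 was lost in 9, and those of Lpl and Vegfb in 4 each. No member passed within muscles 3 and 4 alone (lowest edgeR adjusted p = 0.0551, for Fabp3). By edgeR 4 of 5 erythrocyte genes rose in this contrast and 3 of 4 tendon genes fell. The smooth muscle markers Myh11 (0.61 ± 0.15) and Acta2 (0.58 ± 0.13), the oxidative fibre marker Ldhb (0.48 ± 0.11) and the fat cell marker Adipoq (2.34 ± 0.54) rose too, though not by limma with equal section weights. The part of these cells in the members' differences was not tested.

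**Figure D3:**
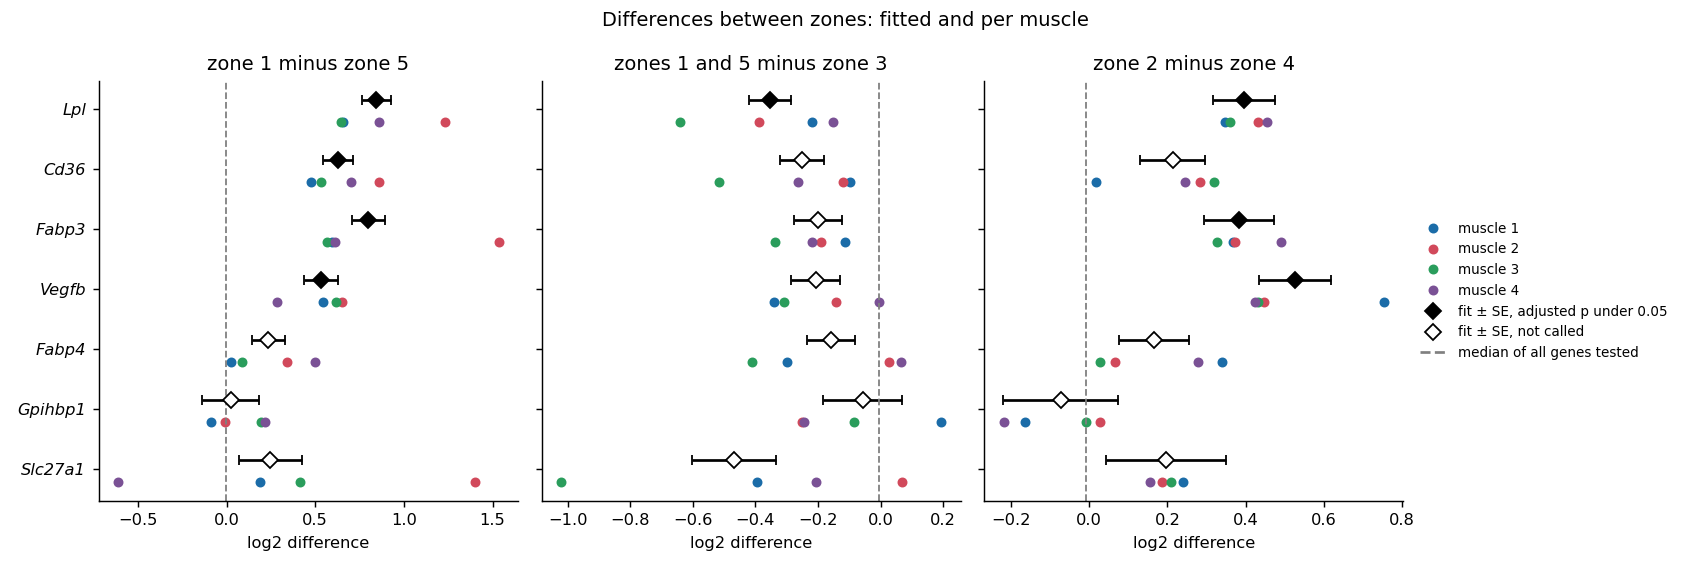
Log2 differences of each gene for zone 1 minus zone 5 (left), the mean of zones 1 and 5 minus zone 3 (centre) and zone 2 minus zone 4 (right). Diamonds are fitted values ± SE, filled where edgeR's adjusted p was under 0.05, coloured dots are the 4 muscles, and the dashed line is the median of all 9632 genes; muscle 2 of Fabp3 stands at 1.53 in the left panel.

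When any difference among the 5 zones was tested, Lpl, Fabp3, Cd36 and Vegfb passed again (largest edgeR adjusted p = 7.24e-07), as did 3.88% of all genes. Slc27a1, Fabp4 and Gpihbp1 did not (edgeR adjusted p = 0.0888, 0.150 and 0.994). Single muscles were also tested alone, by a smooth curve of position over their sections, where sections and not animals give the spread. By this edgeR test Lpl and Fabp3 varied with position in each of the 4 muscles, Cd36 in muscles 2, 3 and 4, and Vegfb in muscles 1, 2 and 3. Fabp4 and Slc27a1 passed in muscle 3 only (edgeR adjusted p = 0.0101 and 6.41e-07), and Gpihbp1 in none (lowest edgeR adjusted p = 0.744). Of all genes 1.23%, 3.04%, 3.39% and 1.42% passed in muscles 1 to 4.

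Section by section, Lpl, Cd36 and Fabp3 moved most closely together. Spearman's rho across the sections of a muscle, averaged over 4 muscles (171 sections), was 0.66 between Lpl and Cd36, 0.66 between Lpl and Fabp3 and 0.63 between Cd36 and Fabp3. With Vegfb these genes had 0.50 to 0.53. Lpl and Fabp4 had 0.48, Fabp3 and Fabp4 0.31, and Lpl and Gpihbp1 0.17. Counts of Gpihbp1 and Slc27a1 are sparse, so low values with them carry little. All levels of a section share its library, and rho with the section's total was 0.45 for Lpl, 0.49 for Cd36 and 0.43 for Fabp3.

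**Figure D4:**
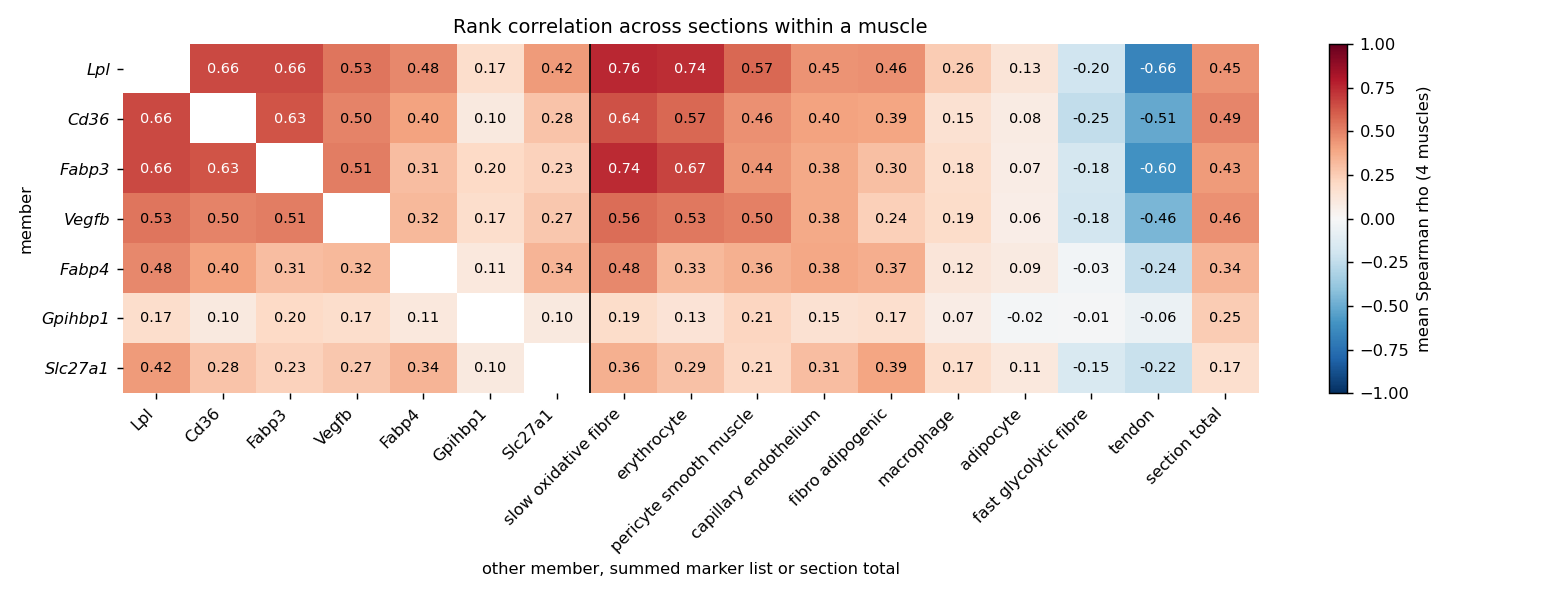
Spearman's rho across the sections of a muscle, averaged over 4 muscles, between each gene (rows) and the other genes, the summed level of marker lists and the section's total transcripts (columns). The block of Lpl, Cd36 and Fabp3 lies at 0.63 to 0.66. The highest values are those of Lpl and Fabp3 with slow and oxidative fibre markers (0.76 and 0.74), a sum made up mostly of Mb. Erythrocyte genes lie close to these, at 0.74 with Lpl and 0.67 with Fabp3, and tendon markers lie at -0.66 and -0.60.

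Among 1324 genes of at least 30 CPM, with the 8 members themselves left out, the section profiles nearest to each member were compared. For Lpl they were Ckmt2, the mitochondrial creatine kinase of striated muscle (mean rho 0.79), the imprinted RNA H19 (0.75) and myoglobin, Mb (0.75). For Fabp3 they were Mb (0.75), H19 (0.71) and Ckmt2 (0.69), for Cd36 Ckmt2 (0.70), H19 (0.67) and the ATP synthase subunit Atp5b (0.65), and for Vegfb H19 (0.67), Ckmt2 (0.56) and Atp5g1 (0.56). Fabp4 was nearest to Atp5b (0.53), the fast myosin Myh1 (0.52) and Atp5h (0.50). Slc27a1 was nearest to the triglyceride lipase Pnpla2 (0.44), Ndufa4 (0.41) and hexokinase Hk2 (0.40). The best value for Gpihbp1 was 0.32, with Mrpl14. Ranked by Pearson's r instead, the genes named for Lpl and Fabp3 stayed within the first 4, and those for Fabp4 and Slc27a1 within the first 9. Atp5b ranked 16 for Cd36, Ckmt2 21 for Vegfb and Mrpl14 36 for Gpihbp1. The rho of Vegfb with Ckmt2 ran from 0.33 to 0.79 over the muscles.

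Other genes of the same route were looked at as lists, without the 8 members. Of 15 genes of mitochondrial beta-oxidation, which burn the fatty acids taken up, 11 rose at the first end and none fell, with a median difference of 0.40 against -0.0028 over all genes. They included Acadvl (0.60 ± 0.13), Cpt2 (0.59 ± 0.17), Acadl (0.53 ± 0.07) and the carnitine carrier Slc25a20 (0.51 ± 0.12), with edgeR adjusted p between 4.75e-07 and 0.0308. Of 15 tested genes of uptake and activation, Acsl1, the acyl-CoA synthetase of muscle and fat (0.43 ± 0.09), and Got2, a mitochondrial aminotransferase also described as a fatty acid binding protein (0.29 ± 0.08), rose. None fell, and the median was 0.20. Of 8 tested genes of lipoproteins and their lipolysis 1 fell, the VLDL receptor Vldlr (-0.35 ± 0.08, edgeR adjusted p = 0.00707), with a median of -0.20. With equal section weights in limma Vldlr was not called (-0.25, adjusted p = 0.268), and 9 of the beta-oxidation genes were. Of 7 endothelial regulators Kdr, the VEGFA receptor, rose (0.78 ± 0.18, edgeR adjusted p = 0.00554). The VEGFB receptors Flt1 and Nrp1 had 0.19 ± 0.10 and 0.17 ± 0.15 and did not pass. For Kdr limma with equal section weights gave 0.64 (adjusted p = 0.0657), and DESeq2 gave no adjusted p. None of 12 lipid droplet genes (median 0.21) passed by edgeR or limma, nor any of the 4 with an adjusted p in DESeq2, with 3 at an unadjusted edgeR p under 0.05. None of 11 PPAR regulators and targets (median 0.24) passed by edgeR or limma, and 1 of the 4 with an adjusted p in DESeq2 did, with 3 at an unadjusted edgeR p under 0.05.

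**Figure D5:**
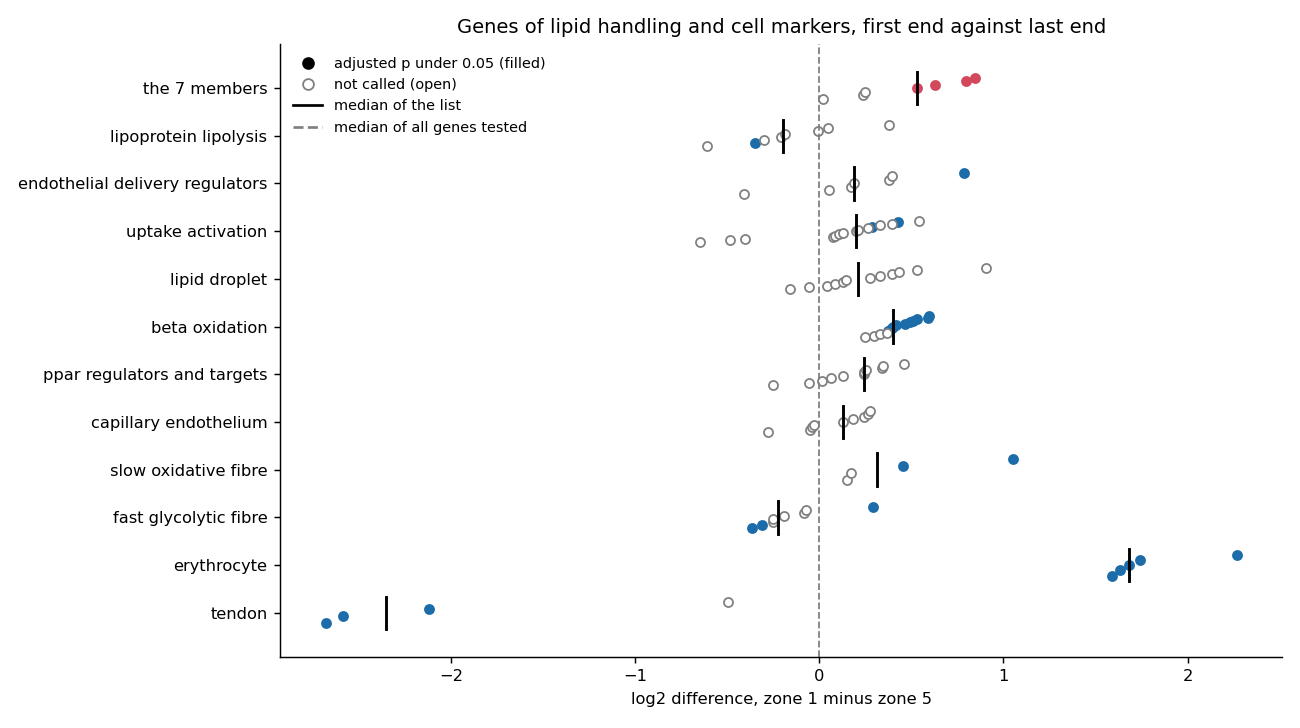
Log2 difference, zone 1 minus zone 5, of single genes in lists of lipid handling and of cell markers, with the 7 tested members on top. Filled points passed edgeR's test (adjusted p under 0.05), open points did not, bars are list medians and the dashed line is the median of all genes; beta-oxidation lies wholly right of the line and tendon markers left of it.

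In the other contrasts 2 of these genes passed. Acadl rose between the flanks (0.27 ± 0.07, edgeR adjusted p = 0.0441) and Flt1 fell at the ends (-0.30 ± 0.08, edgeR adjusted p = 0.0484). By edgeR no other listed gene of lipid handling passed in them, and limma with equal section weights also called Acadvl as lower at the ends (-0.45, adjusted p = 0.0494).

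Markers of several cell types changed along the same axis as the members. The summed level of 5 erythrocyte genes ranged from 1338 to 4196 CPM in zone 1, against 601 to 1603 CPM in zone 5, and 5 of 5 rose. The summed level of 4 tendon genes ranged from 9.37 to 19.96 CPM in zone 1, against 31.98 to 123 CPM in zone 5, and 3 of 4 fell (Prg4, Chad and Fmod). Of 4 tested slow and oxidative fibre markers Ldhb (1.05 ± 0.13) and Mb (0.46 ± 0.08) rose. The myosins Myh2 (0.17 ± 0.12) and Myl3 (0.15 ± 0.18) were not called, and 5 listed markers were not tested. The list summed to 1597 to 3943 CPM in zone 1, against 1344 to 3105 CPM in zone 5. Most of this sum is Mb, at a mean of 2133 CPM against 349 CPM for Myh2. Of 8 fast fibre markers Actn3 (-0.37 ± 0.08) and Myh4 (-0.31 ± 0.08) fell and Myh1 (0.29 ± 0.08) rose, with sums of 24065 to 32357 CPM in zone 1 and 29370 to 34104 CPM in zone 5. Of 8 markers of pericytes and smooth muscle Myh11 (0.77 ± 0.16) and Acta2 (0.58 ± 0.14) rose, with sums of 203 to 413 CPM in zone 1 and 218 to 254 CPM in zone 5. Their differences were near 0 in muscles 2 and 3 (0.0091 and 0.076 for Myh11, -0.17 and 0.018 for Acta2). Limma with equal section weights called neither, and DESeq2 called only Myh11. Of the 8 values 6 were positive, while those of Abcc9 (-0.21) and Kcnj8 (-0.062) were negative and not called. Of 7 fibro-adipogenic markers Cxcl14 (0.89 ± 0.15) and Col15a1 (0.63 ± 0.15) rose, with sums of 336 to 416 CPM in zone 1 and 304 to 462 CPM in zone 5. Limma called both too, and DESeq2 gave neither an adjusted p. Of the 7 values 4 were positive, while those of Gsn (-0.29), Pdgfra (-0.20) and Dcn (-0.080) were negative and not called. The part of these cells in the members' differences was not tested.

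None of 9 tested markers of capillary endothelium, the cells of Gpihbp1 and of part of Cd36 and Fabp4, was called between the ends by edgeR or limma, nor either of the 2 with an adjusted p in DESeq2, and 1 had an unadjusted edgeR p under 0.05. They summed to 134 to 221 CPM in zone 1, against 142 to 184 CPM in zone 5, with a median difference of 0.13. Of the 7 endothelial regulators above, kept as another list, Kdr alone rose by edgeR (0.78 ± 0.18), and Flt1 did not pass (0.19 ± 0.10). None of 4 macrophage markers was called by edgeR or limma, with 2 at an unadjusted edgeR p under 0.05 (13.4 to 26.6 CPM in zone 1, against 17.2 to 31.6 CPM in zone 5). The 2 tested fat cell markers, Adipoq and Cfd, summed to 1.96 to 10.3 CPM in zone 1 and 1.57 to 8.88 CPM in zone 5, neither called between the ends. Both rose at the ends over the middle by edgeR, though not by limma, and in zone 3 they summed to 0.193 to 2.65 CPM. Fabp4, which fat cells also make, had 74.98 ± 10.8 CPM in zone 1 and 63.8 ± 11.2 in zone 5, against 78.3 ± 21.8 CPM in zone 3 (SD, n = 4).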

How the data were processed

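RNA of single cryosections of 4 tibialis anterior muscles was primed, per the labels' protocols, with a UMI (6 bases) and a section barcode (8 bases). The submitters' processing notes name STAR 2.7.7a and GRCm38. How genes were counted, and whether by strand, is not given in the sources used here. Estimated counts per gene and barcode were deposited by the authors and, from the values, are UMIs corrected for repeat draws among 4096. No member was near saturation. They also deposited a filtered table of normalized signal, used only to learn which of 96 barcodes were kept (tolerance 1e-06).

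Rows naming several genes, 0.58% to 0.93% of the counts, were left out of tests and library totals. Counts were summed over 5 zones of equal length per muscle, rounded, and fitted with edgeR 4.0.16 in R 4.3.3 (TMM scaling, filterByExpr, quasi-likelihood F-test) with muscle as a block, since zones of 1 muscle are the same tissue. SE came from the F statistic, and the biological coefficient of variation was 7.04%. Single muscles were fitted with a spline of 4 degrees of freedom. Partner genes were compared by exact sign-flip tests. CPM are scaled by TMM except over whole muscles. IDs matched GENCODE M21 for 28895 of 28989. The rule named all 8 members, their 3 nearest profiles, and up to 4 called genes per list and direction. Depth limits thinly counted genes. The alternatives tried were DESeq2 1.42.0, limma 3.58.1 and other scalings, filters, zones and sections. The members and lists were chosen with earlier results of these data known.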

Additional observations from a re-analysis of the deposited data

Results flagged for a closer look

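Of 29 sets of 4 per-muscle values examined for a sample far from the others, 2 were picked out; by chance about 1 in 20 such sets is. The difference of Fabp3 between zone 1 and zone 5 was 1.53 in muscle 2, against 0.57 to 0.61 in the other muscles. The difference of Vegfb between zone 2 and zone 4 was 0.75 in muscle 1, against 0.42 to 0.45 in the others.

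Barcodes outside the kept sections also held transcripts of the 8 genes. They carried 2.28%, 3.502%, 1.77% and 2.17% of the members' transcripts in muscles 1 to 4, against 3.62%, 3.87%, 2.49% and 2.37% over all genes. There is no control sample to set them against, and they were not used in any comparison.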

How the results depend on the processing

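Between the first and last end, Lpl, Cd36, Fabp3 and Vegfb stayed higher under every alternative run, and 3 to 5 members were called except without the block. With muscle left out of the model (no replicate block) 1, 0, 0 and 4 genes were called for first against last end, ends against middle, the flanks and any difference, and 0 members in each. Thinning the zone sums to the shallowest gave 189, 65, 33 and 231 genes in these contrasts and 1 member between the flanks. Muscles 1 and 2 alone gave 159, 44, 28 and 179 genes, with 0 members for the ends and 1 for the flanks; muscles 3 and 4 alone gave 74, 55, 36 and 158, with 3 and 0. With 3 zones 41 genes and 0 members differed between ends and middle, and with 10 zones 333 and 4; 10 zones gave 131 genes between the first and last end. Equal section weights in limma gave 154, 223 and 25 genes, with 4 members for the ends and 0 for the flanks, and moved the median of all genes to -0.12 for the ends. Without a filter on low counts 2 members passed for the ends. Between the flanks DESeq2 gave 43 genes, leaving out the 2 outermost sections per end 45, and leaving out sections under 200000 transcripts, an alternative chosen after seeing the data, 43.

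Leaving out 1 muscle at a time gave 87 to 201, 38 to 183, 36 to 64 and 174 to 325 genes, and 4, 0 to 2, 2 to 3 and 4 to 5 members. Gpihbp1 then ran from -0.029 to 0.15 between first and last end and from -0.19 to 0.0089 for the ends against the middle; Cd36 minus Slc27a1 ran from -0.048 to 0.57. Signs also turned for Gpihbp1 in muscles 1 and 2 alone (-0.087 between first and last end, 0.023 for the ends) and with 3 zones (0.0043 for the ends), and for Slc27a1 in muscles 3 and 4 alone (-0.052). None of these was called. Between the first and last end Vegfb was not called with equal section weights (0.44) or in muscles 3 and 4 alone (0.46). The balance of higher and lower calls moved from 190 and 106 to 169 and 58 with DESeq2, for the ends from 59 and 78 to 75 and 26, and for the flanks from 45 and 26 to 21 and 22. DESeq2 gave an adjusted p for 1998, 1440 and 1998 genes in these contrasts, fewer than the 9632 tested by edgeR. Equal section weights in limma gave 112 higher and 42 lower between the first and last end, and 17 higher and 206 lower for the ends. The cause of these shifts was not tested.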
